A study of Homo sapiens with 16 samples.

Results

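The response of Jurkat cells to the CDK4 and CDK6 inhibitor PD-0332991 was examined across all genes. It was measured in 4 of the 16 arrays of the series, chosen by their titles alone. In 2 of them the cells had been given 1 uM PD-0332991 for 15 h, and in the other 2 they had been given DMSO, the vehicle, for the same time. Jurkat is an established human line of T cell acute lymphoblastic leukaemia (T-ALL), a cancer of T cell precursors, and PD-0332991 is the compound later named palbociclib. The other 12 arrays held the T-ALL lines CEM, CUTL1 and DND41 in DMSO or PD-0332991, with 2 arrays per line and treatment at the same dose and time, and were used as the reference for what set Jurkat apart. The labels name no engineered allele in any line. Jurkat stands here as 1 line, its RNA was amplified before labelling, and the labels do not say whether the arrays of a group came from separate cultures. The p-values thus weigh differences against the spread of these arrays, and that spread may be only technical.

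D-type cyclins bind CDK4 and CDK6, and the active kinases phosphorylate the RB protein, which otherwise holds E2F transcription factors in check. E2F factors drive the genes of DNA replication, nucleotide supply and DNA repair as cells enter S phase. Genes of mitosis come later in the cycle and are held down in resting cells by a multi-protein repressor, DREAM, which binds a promoter element called CHR. Jurkat cells are widely used to study signalling from the T cell receptor, and they carry high levels of the T-ALL transcription factor TAL1.

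Levels are log2 of the deposited intensities, and 13483 genes were tested. A gene was tested where its mean in at least 1 line reached 4.88 on the log2 scale, the median of all deposited values, and a gene below that level in a group is called dim there. The 2 DMSO arrays of Jurkat differed by a median of 0.128 per gene (log2) and the 2 PD-0332991 arrays by 0.070. DMSO array 1 lay farther from the PD-0332991 arrays (median differences of 0.218 and 0.219) than DMSO array 2 did (0.188 and 0.182). All 10 T cell markers listed, among them CD3D, CD3E and LCK, were above the dim level in Jurkat. Their summed intensity was 35679 and 33912 in the DMSO arrays and 38474 and 38135 in the PD-0332991 arrays. Of the 10, 7 were called higher, while CD3G differed by -0.51 and was not called. LCK, 1 of the 7, lost its call without DMSO array 1 or either PD-0332991 array. NK and cytotoxic markers summed to 1766 and 1881 in DMSO and to 2699 and 2786 with PD-0332991, and 3 of the 6 tested rose, namely PRF1, GZMA and GZMK. GZMA lost its call with any 1 of the 4 Jurkat arrays left out, GZMK with any but DMSO array 1 and PRF1 without PD-0332991 array 2. B cell markers summed to 645 and 608 in DMSO and to 785 and 817 with PD-0332991. Of the 7 tested, BLK and CR2 were called higher. BLK lost its call without DMSO array 2 or PD-0332991 array 2, and CR2 without DMSO array 1 or either PD-0332991 array. Fibroblast and endothelial markers summed to 1624 and 1578 in DMSO and to 2074 and 2045 with PD-0332991. Of the 5 tested, PECAM1 was called higher, a call lost with any 1 of the 4 Jurkat arrays left out. The part of these shifts in the results was not tested, and in bulk RNA fewer cells of a kind and less RNA per cell cannot be told apart.

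PD-0332991 lowered the genes of DNA replication and mitosis in Jurkat and raised a larger number of genes by smaller amounts. With limma and Benjamini-Hochberg adjustment over the 13483 genes, 3645 genes (27.0%) differed between PD-0332991 and DMSO at an adjusted p below 0.05, which is the meaning of rose, fell and called from here on. Of these, 2110 (15.6%) rose and 1535 (11.4%) fell, and the counts of each list below are to be set beside these shares. Falls were deeper than rises: 312 genes fell by a factor of 2 or more and 71 rose by as much. The median over all genes was 0.047 (log2). The number of rises was the less firm count, since it was 1256, 1137 and 1102 without DMSO array 1, PD-0332991 array 1 and PD-0332991 array 2. The falls then numbered 1188, 1073 and 1048. Groups of 2 arrays without overlap were common, at 8606 genes (63.8%), so a gap between groups says little by itself. Across genes, the Jurkat differences followed those of CEM (r = 0.771) and CUTL1 (r = 0.757) more closely than those of DND41 (r = 0.529). These are correlations over genes, which are not independent replicates.

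**Figure D1:**
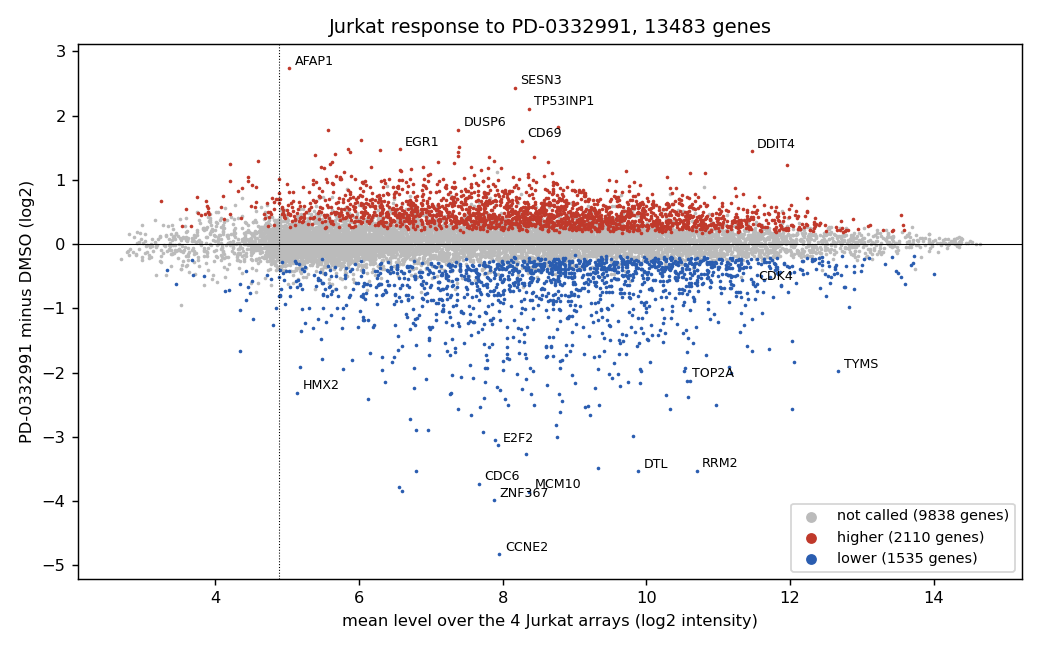
Each point is 1 of the 13483 genes tested. The horizontal axis is the mean level over the 4 Jurkat arrays (log2 intensity) and the vertical axis is PD-0332991 minus DMSO (log2), with called rises in red, called falls in blue and the dim level as a dotted line. The falls reach down to CCNE2 at -4.83, while the highest rise is AFAP1 at 2.74.

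The largest fall among the genes tested was in CCNE2, the cyclin E2 partner of CDK2, which read 10.20 and 10.54 in the DMSO arrays and 5.89 and 5.19 in the PD-0332991 arrays. Its level was thus 28.5-fold lower with PD-0332991 (log2 difference -4.83, SE 0.20, adjusted p = 1.33e-08). ZNF367, a zinc finger protein, read 9.70 and 10.06 against 5.96 and 5.82 (-3.99, SE 0.17, adjusted p = 1.26e-08). The next 10 in order were MCM10, E2F7, EXO1, CDC6, DTL, RRM2, E2F8, GINS2, CDT1 and E2F2, with differences from -3.85 to -3.13. E2F7 and E2F8, repressors of the E2F family, ended near or below the dim level, E2F7 at 4.59 and 4.76 and E2F8 at 5.14 and 4.91. In each of these genes the gap between groups was wider than the gap between arrays of a group, and the rule for naming them asked for arrays without overlap. Averaging all probe sets of a gene, dim ones included, shrank E2F7 to -1.93, E2F2 to -1.51 and GINS2 to -1.59. With probe sets marked _x_at (open to cross-hybridisation) or _s_at (shared between transcripts) left out, GINS2 read -0.04 (adjusted p = 0.873). That value is of another GINS2 probe set, and a further one without the mark read -1.23 (unadjusted limma p of 1.54e-05).

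The 12 largest rises were smaller and of mixed function. SESN3, a sestrin that restrains the growth kinase complex mTORC1, read 6.60 and 7.31 in DMSO and 9.25 and 9.53 with PD-0332991, a 5.40-fold rise (2.43, SE 0.24, adjusted p = 2.29e-05). TP53INP1, a stress-induced protein linked to p53 and autophagy, read 7.15 and 7.47 against 9.36 and 9.47 (2.10, SE 0.21, adjusted p = 2.63e-05). That value rests on 1 probe set: of its other probe sets, one read -0.35 with an unadjusted limma p of 0.0170 at a dim mean of 3.27, and one read -0.04. ABAT, which breaks down the transmitter GABA, rose by 1.82, and YPEL2, of the yippee family, by 1.52. DDIT4, an inhibitor of mTORC1, rose from 10.76 and 10.73 to 12.19 and 12.18 (1.44, SE 0.06, adjusted p = 6.96e-09). The others among the 12 were AFAP1, DUSP6, HTR2B, CD69, PCDHB2, EGR1 and ETV5. With all probe sets averaged, SESN3 shrank to 0.91, TP53INP1 to 0.57, ABAT to 1.20 and YPEL2 to 0.63, and each was still called.

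**Figure D2:**
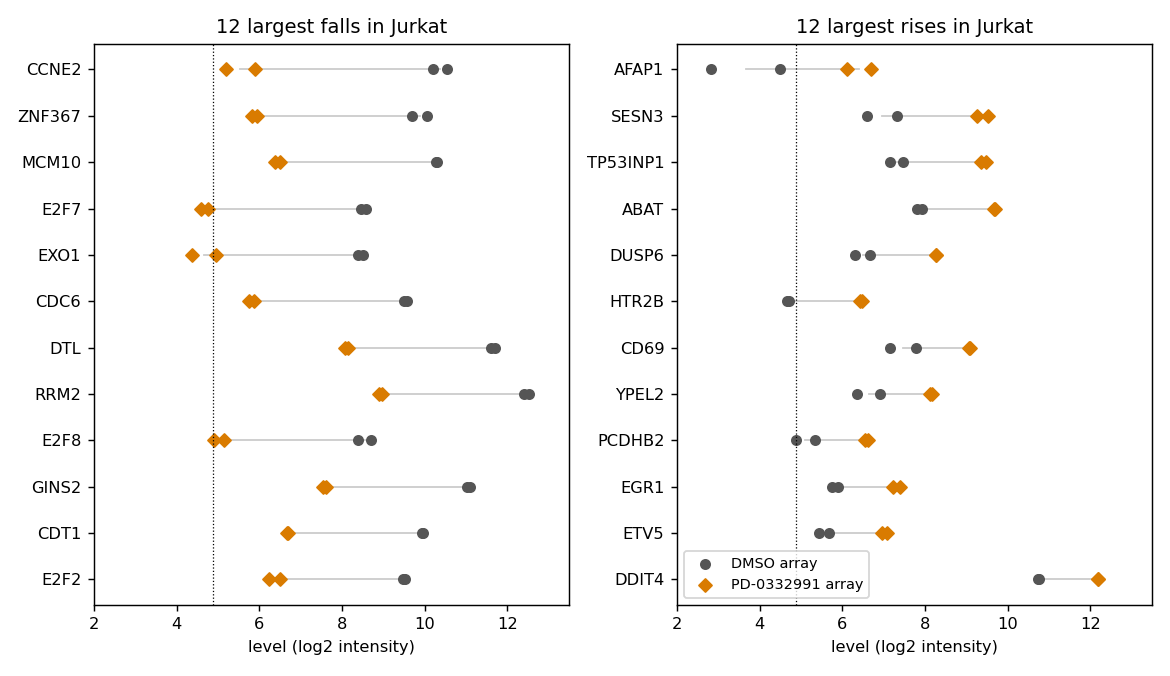
Level (log2 intensity) of the 12 largest falls and the 12 largest rises in each of the 4 Jurkat arrays, with grey circles for DMSO, orange diamonds for PD-0332991 and the dim level as a dotted line. The 2 arrays of a group lie close together beside the gap between groups, except for the DMSO arrays of AFAP1 at 2.83 and 4.50.

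In the cyclin D and RB network, the genes downstream of RB fell while the drug's own targets, CDK4 and CDK6, differed by less. Of 33 members tested, 18 fell and 3 rose, leaving 12 without a call, and the median was -0.48. CDK4 read 11.84 and 11.75 in DMSO and 11.19 and 11.16 with PD-0332991, a fall of moderate size (-0.62, SE 0.07, adjusted p = 9.33e-05). CDK6 read 13.21 and 13.33 against 13.42 and 13.47 and was not called (0.17, SE 0.08, adjusted p = 0.167), and neither was RB1 (0.27, adjusted p = 0.148). In the E2F family the activators E2F1 and E2F2 differed by -1.06 and -3.13, the repressors E2F7 and E2F8 by -3.85 and -3.53, and E2F6 by -0.26, while E2F3, E2F4 and E2F5 were not called (-0.18, -0.14 and 0.18). CCNE1, the second cyclin E, fell from 8.22 and 8.25 to 6.63 and 6.77 (-1.54, adjusted p = 6.85e-06), or by 0.78 with its probe sets averaged. CDC25A, the phosphatase that activates CDK2, fell by 2.44, and TFDP1, the common partner of E2F proteins, by 1.39.

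Among the 3 members that rose, CCND2, the gene of cyclin D2, stood out. It read 6.34 and 6.56 in DMSO and 7.50 and 7.97 with PD-0332991 (1.28, SE 0.15, adjusted p = 7.68e-05). CCND2 was dim in the DMSO arrays of the other lines, at means of 4.09, 3.82 and 4.25, and there differed by -0.13 in CEM, -0.11 in CUTL1 and 0.85 in DND41. The Jurkat difference exceeded their mean by 1.08 (adjusted p = 0.00650). With probe sets averaged the CCND2 values were 0.59 and 0.45, both called. CCND3, the cyclin D3 gene, was called at 0.29 (adjusted p = 0.0141), but the call was lost without DMSO array 1 or either PD-0332991 array (adjusted p of 0.0683 to 0.0773). CDKN1A, the gene of the CDK inhibitor p21, was called at -0.48 (adjusted p = 0.0467). That call was lost without the same 3 arrays in turn, at values of -0.59 to -0.34 and adjusted p of 0.0773 to 0.280. CCND1 was dim in both Jurkat groups. The members that rose numbered 1 without PD-0332991 array 1 and 2 without DMSO array 1 or PD-0332991 array 2.

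The replication list holds the parts that load, fire and copy: the origin recognition complex, the MCM helicase, GINS, polymerases, the clamp and its loader. Of its 52 members 48 fell and none rose, beside 11.4% of all genes that fell, and the list's median was -1.82. CDC6, which loads the MCM helicase, read 9.57 and 9.50 in DMSO and 5.75 and 5.87 with PD-0332991 (-3.73, SE 0.10, adjusted p = 8.45e-10). DTL, a subunit of the ubiquitin ligase that destroys the licensing factor CDT1, read 11.60 and 11.71 against 8.16 and 8.08 (-3.54, SE 0.08, adjusted p = 1.83e-10). The 4 members not called were ORC2, ORC4, ORC5 and RPA1, 3 of them subunits of the origin recognition complex, with differences of -0.21 to 0.15. The count of 48 was the same when any Jurkat array was left out.

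Nucleotide supply and DNA repair fell with replication. In the nucleotide list 19 of 25 members fell and none rose, with a median of -0.48. RRM2, the regulated subunit of ribonucleotide reductase, read 12.52 and 12.40 against 8.97 and 8.89 (-3.53, SE 0.08, adjusted p = 1.83e-10). TYMS, which makes thymidylate, read 13.61 and 13.72 against 11.66 and 11.70, and TK1, the thymidine kinase of S phase, read 8.46 and 8.36 against 5.45 and 5.58. These 3 enzymes fell far below the list's median. In the repair list 23 of 25 members fell, with a median of -1.61. EXO1, a nuclease of mismatch repair and end resection, read 8.51 and 8.39 against 4.37 and 4.96 (-3.79, SE 0.14, adjusted p = 5.54e-09). XRCC2 and ATR, a kinase that responds to stalled forks, were the members not called, at -0.22 and 0.20. Histone supply factors, which escort histones to new DNA, fell in 13 of 14 cases. ASF1B fell by 2.67, and CHAF1A, the large subunit of chromatin assembly factor 1, fell by 2.17.

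The promoters of these genes can be set beside the falls. RefSeq promoters of assembly GRCh38.p14, from 250 bases before to 50 bases after the start, were available for 10826 of the genes tested. They were searched on both strands for the E2F letters TTTCGCGC, TTTGGCGC, TTTCCCGC and TTTGCCGC. Promoters with a match made up 5.12% of all genes tested, 11.9% of 1276 genes that fell, 21.8% of 262 that fell by a factor of 2 or more, and 2.89% of 1731 that rose. In the replication list 20 of 45 promoters (44.4%) held a match. A match is a description of letters, not a shown binding site. The promoters of CDC6 (chr17:40287629-40287928, plus strand), EXO1 (chr1:241847954-241848253, plus strand) and E2F2 (chr1:23531184-23531483, minus strand), 3 of the 12 deepest falls, are shown as examples. They are written 5′ to 3′ on the strand of the gene, with the E2F letters in capitals:
CDC6: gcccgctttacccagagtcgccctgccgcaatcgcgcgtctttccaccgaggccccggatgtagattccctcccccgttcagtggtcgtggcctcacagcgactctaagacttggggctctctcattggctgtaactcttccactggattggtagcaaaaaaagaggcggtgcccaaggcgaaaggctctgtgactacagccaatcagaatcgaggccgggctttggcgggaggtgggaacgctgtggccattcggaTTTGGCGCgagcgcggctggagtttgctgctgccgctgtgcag
EXO1: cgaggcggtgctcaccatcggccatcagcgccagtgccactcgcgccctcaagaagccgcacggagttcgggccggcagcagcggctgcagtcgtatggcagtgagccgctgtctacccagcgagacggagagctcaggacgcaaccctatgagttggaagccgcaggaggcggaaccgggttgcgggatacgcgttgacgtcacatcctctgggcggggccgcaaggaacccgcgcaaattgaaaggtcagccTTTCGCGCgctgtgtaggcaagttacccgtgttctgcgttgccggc
E2F2: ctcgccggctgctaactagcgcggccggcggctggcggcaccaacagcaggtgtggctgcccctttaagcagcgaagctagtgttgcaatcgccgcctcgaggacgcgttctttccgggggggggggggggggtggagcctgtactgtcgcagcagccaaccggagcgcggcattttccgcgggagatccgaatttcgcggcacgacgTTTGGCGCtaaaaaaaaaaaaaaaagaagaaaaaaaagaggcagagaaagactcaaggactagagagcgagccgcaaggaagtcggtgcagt
In CDC6 and EXO1 the match lies just after the start site, and in E2F2 just before it. Promoters of the other deep falls, MCM10 and RRM2 among them, are not shown, and most promoters of the replication list held no match.

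Of the pathway lists, mitosis held the most genes that fell further in Jurkat than in the other lines. Of 76 members 74 fell in Jurkat, with a median of -1.44, against medians of -0.50 in CEM, -1.19 in CUTL1 and -0.72 in DND41. The fall was deeper in Jurkat than in each other line for 56 of the 76 members. In the test of the Jurkat difference minus the mean of the differences in the other lines, 333 of all genes (2.47%) were called, 131 (0.972%) with Jurkat above and 202 (1.50%) with Jurkat below. Of the mitosis members 47 of 76 were called below and none above, and all 47 were above the dim level in each other line. With any 1 of the 16 arrays left out the number called below was between 33 and 50, and it was lowest without PD-0332991 array 1. In the replication list 16 of 52 members were called below, and 7 to 18 with an array left out (the fewest again without PD-0332991 array 1, with 9 without PD-0332991 array 2), while the list's median in Jurkat lay between those of CUTL1 (-2.03) and CEM (-1.35).

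TOP2A, the topoisomerase that untangles sister chromosomes, read 11.61 and 11.65 in DMSO and 9.50 and 9.49 with PD-0332991 (-2.13, SE 0.15, adjusted p = 7.99e-07). It differed by only -0.30 in CEM, -1.03 in CUTL1 and -0.41 in DND41, so Jurkat lay 1.55 below their mean (adjusted p = 0.000706). That difference was -0.98 (adjusted p = 0.000604) without _x_at and _s_at probe sets and -0.63 (adjusted p = 0.0544) with all its probe sets averaged, dim ones included. UBE2C, the ubiquitin-conjugating enzyme of the anaphase-promoting complex, read 11.02 and 10.98 against 9.47 and 9.46 (-1.53). The other lines differed by -0.38, -0.64 and -0.11 in the order CEM, CUTL1 and DND41, and Jurkat lay 1.15 below their mean (adjusted p = 0.000164). CDK1, the kinase that drives entry into mitosis, was chosen after its values were seen, and read 12.05 and 12.17 against 10.13 and 10.27 (-1.91). Jurkat lay 1.07 below the other lines for CDK1 (adjusted p = 0.000192). The condensin subunit NCAPG fell by 2.23 in Jurkat and by 1.01, 1.96 and 1.07 in CEM, CUTL1 and DND41, a difference of -0.89 (adjusted p = 0.000415). MYBL2, the B-MYB activator of mitotic genes, fell by 2.33, and CDCA5, also called sororin, which guards sister chromatid cohesion, fell by 2.61. BUB3, a spindle checkpoint protein, and CKS2, which binds CDK1, were the members not called, at -0.07 and -0.08. With its probe sets averaged BUB3 was called lower (-0.35, limma adjusted p = 0.00241), and 3 other probe sets of it differed by -0.42 to -0.55.

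The CHR letters TTTGAA, searched on both strands, were in 42 of 65 promoters of the mitosis list (64.6%). The share was 9.93% of all genes tested, 16.2% of genes that fell and 28.6% of those that fell by a factor of 2 or more. It was 9.71% of genes that rose and 15.7% of 51 that rose by a factor of 2 or more. Among genes called apart from the other lines it was 31.9% of 166 with Jurkat below and 13.8% of 109 with Jurkat above. These 6 letters are short, and 15.4% of all 27305 promoters of the table hold them. The promoters of TOP2A (chr17:40417847-40418146, minus strand), CDK1 (chr10:60778081-60778380, plus strand) and NCAPG (chr4:17810729-17811028, plus strand) show the element, with its letters on either strand in capitals, in genes that fell further in Jurkat:
TOP2A: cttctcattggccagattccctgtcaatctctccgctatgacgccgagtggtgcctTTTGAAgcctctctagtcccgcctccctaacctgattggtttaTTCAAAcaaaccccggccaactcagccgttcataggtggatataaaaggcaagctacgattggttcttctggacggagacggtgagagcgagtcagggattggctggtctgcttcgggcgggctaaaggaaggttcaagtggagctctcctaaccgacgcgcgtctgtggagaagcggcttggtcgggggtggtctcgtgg
CDK1: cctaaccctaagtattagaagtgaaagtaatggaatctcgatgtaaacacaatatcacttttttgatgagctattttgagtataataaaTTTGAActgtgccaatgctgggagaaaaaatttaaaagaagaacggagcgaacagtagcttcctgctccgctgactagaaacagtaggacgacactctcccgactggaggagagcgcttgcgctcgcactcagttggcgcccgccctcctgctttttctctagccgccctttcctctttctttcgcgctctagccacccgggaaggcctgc
NCAPG: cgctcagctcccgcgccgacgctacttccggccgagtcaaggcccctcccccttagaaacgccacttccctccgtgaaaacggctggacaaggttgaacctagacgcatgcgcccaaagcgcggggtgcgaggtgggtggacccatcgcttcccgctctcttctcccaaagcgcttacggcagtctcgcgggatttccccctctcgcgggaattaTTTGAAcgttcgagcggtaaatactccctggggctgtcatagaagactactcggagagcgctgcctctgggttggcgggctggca
TOP2A holds 1 match on each strand, and CDK1 and NCAPG hold 1 match each. The replication list, by contrast, had the CHR letters in 1 of 45 promoters and the mitosis list had the E2F letters in 5 of 65.

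**Figure D3:**
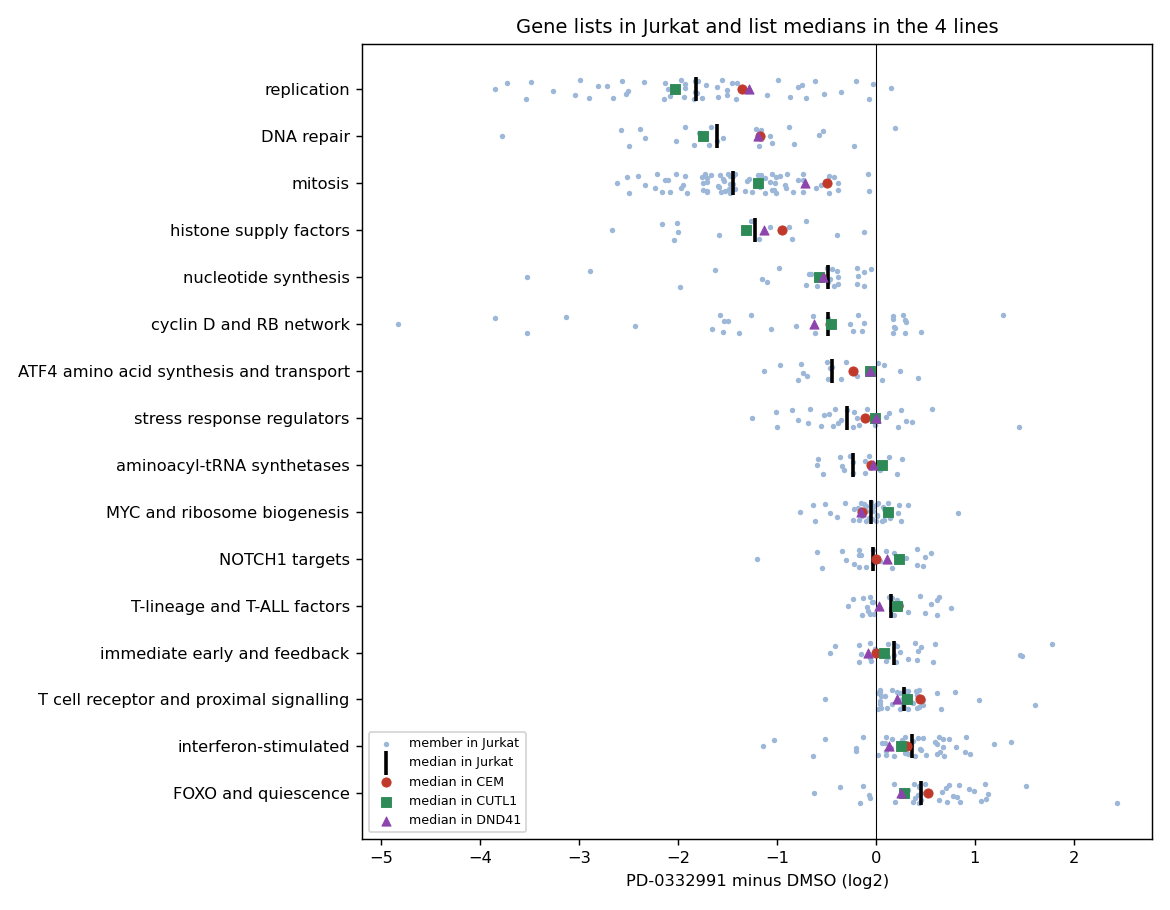
PD-0332991 minus DMSO (log2) for the members of 16 gene lists in Jurkat (small blue points), with the list median in Jurkat (black bar), CEM (red circle), CUTL1 (green square) and DND41 (purple triangle). The black bar lies to the left of the other lines for mitosis, at -1.44, and for the lists of ATF4 targets, stress regulators and tRNA synthetases. It does so narrowly for NOTCH1 targets, at -0.03.

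Several E2F-linked genes also fell further in Jurkat than in the other lines. For RRM2 the others differed by -1.46, -2.99 and -1.94, and Jurkat lay 1.40 below their mean (adjusted p = 5.29e-05). MCM10, a replication initiation factor, read 10.30 and 10.28 against 6.38 and 6.50 in Jurkat, and lay 1.23 below (adjusted p = 0.000366). Without _x_at and _s_at probe sets MCM10 lay 0.88 below (adjusted p = 0.0557). For E2F2, which read 9.53 and 9.47 against 6.50 and 6.23, Jurkat lay 1.26 below the others (adjusted p = 0.000712). The E2F2 value shrank to -0.27 (adjusted p = 0.299) when all probe sets of a gene were averaged. Not all deep falls were deeper in Jurkat: CCNE2 fell by 2.91 in CEM, 5.96 in CUTL1 and 3.66 in DND41, and the Jurkat difference from their mean was -0.66 (adjusted p = 0.202). GINS2, a subunit of the replicative helicase, differed from the mean of the others by -0.01 (adjusted p = 0.958).

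Histone genes moved in both directions. Of 23 replication-dependent histone genes tested, 9 fell and 3 rose, beside 11.4% and 15.6% of all genes, and 10 were dim in both Jurkat groups. H1-2, a linker histone, read 7.71 and 7.52 against 6.38 and 6.26 (-1.29, SE 0.15, adjusted p = 8.79e-05). It differed by 0.16 in CEM, -0.25 in CUTL1 and 0.53 in DND41, and Jurkat lay 1.44 below their mean (adjusted p = 0.00147). H2AC6, a core histone, went the other way, from 5.11 and 5.23 to 6.18 and 6.02 (0.93), which was less than its rises of 2.29, 1.30 and 2.58 in the other lines (difference -1.13, adjusted p = 0.00449). The number of histone genes that fell was 5 without DMSO array 2, PD-0332991 array 1 or PD-0332991 array 2 in turn and 6 without DMSO array 1. Messages of these genes mostly end without a poly(A) tail, and near-identical copies can share probes.

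Among targets of ATF4, some members also fell further in Jurkat than in the other lines. ATF4 is the transcription factor that cells use to raise amino acid synthesis, amino acid uptake and tRNA charging under stress. Over all genes in Jurkat 11.4% fell and 15.6% rose. In the amino acid list 12 of 19 members fell and none rose. The list's median was -0.45, against -0.23, -0.06 and -0.06 in CEM, CUTL1 and DND41. Of 29 stress response regulators 16 fell and 3 rose (median -0.29), and of 17 cytosolic tRNA synthetases 8 fell and 1 rose (median -0.23). The last count rested on few arrays: it was 4 without DMSO array 1 or PD-0332991 array 1 and 5 without PD-0332991 array 2. The stress regulators that fell numbered 9 without PD-0332991 array 1 and 10 without PD-0332991 array 2. The falls in the amino acid list numbered 10 or 11 with any Jurkat array left out.

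CHAC1, an enzyme that degrades glutathione and a sensitive ATF4 target, read 7.83 and 8.0 in DMSO and 6.62 and 6.71 with PD-0332991 (-1.26, SE 0.10, adjusted p = 3.15e-06). Its differences were -0.20, -0.21 and 0.04 in CEM, CUTL1 and DND41, and Jurkat lay 1.13 below their mean (adjusted p = 0.000443). SLC7A11, the cystine importer, read 9.12 and 9.28 against 8.03 and 8.10 (-1.13), with -0.21, -0.29 and 0.47 in the other lines and a difference of -1.12 (adjusted p = 0.000415). Both calls held with each of the 16 arrays left out. ATF4 itself read 12.99 and 12.91 against 12.49 and 12.45 (-0.48, SE 0.07, adjusted p = 0.000607), while the other lines stayed within -0.11 to 0.07. The difference of ATF4 from the other lines, -0.45 (adjusted p = 0.0159), lost its call without DMSO array 1 or either PD-0332991 array (adjusted p of 0.0735 to 0.114).

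ASNS, the asparagine synthetase, fell from 10.41 and 10.37 to 9.64 and 9.74 (-0.70, adjusted p = 0.00257, or -0.28 with probe sets averaged), and its difference from the other lines, -0.63, missed the threshold (adjusted p = 0.0649). TRIB3, a pseudokinase that feeds back on ATF4, fell by 0.43, and CEBPG, a partner of ATF4 on DNA, by 1.00. DDIT3, the CHOP gene, was called at -0.38 (adjusted p = 0.0361), but that call was lost without any 1 of the 4 Jurkat arrays (adjusted p of 0.0546 to 0.229). Members that rose were DDIT4, already named, XBP1, which drives the secretory arm of the stress response, by 0.57, and EDEM1, which helps to clear misfolded proteins, by 0.25. XBP1 lost its call without DMSO array 1 or PD-0332991 array 2 (adjusted p of 0.0916 and 0.0922) and with its probe sets averaged (0.30, adjusted p = 0.103), and EDEM1 without either DMSO array or PD-0332991 array 2 (adjusted p of 0.118 to 0.324). In the amino acid list 3 of 19 members, in the stress list 5 of 29 and in the tRNA synthetase list 4 of 17 were called below the other lines, against 1.50% of all genes. Such shares were not particular to these lists: 5 of 23 NOTCH1 targets and 6 of 23 replication-dependent histone genes were called below. The fewest with an array left out were 1 and 2. The 3 amino acid genes dropped to 1 without either PD-0332991 array and to 2 without either DMSO array. The 4 synthetases dropped to 0 without DMSO array 1, PD-0332991 array 1 or PD-0332991 array 2 in turn, and the 5 stress genes to between 1 and 3.

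The composite element bound by C/EBP and ATF proteins was searched as the letters TTGCATCA on both strands. It was in 5 of 14 promoters of the tRNA synthetases (35.7%), in 1 of 15 of the amino acid list (6.67%) and in 2 of 26 of the stress regulators (7.69%), against 0.545% of all genes tested, 0.940% of genes that fell and 0.404% of genes that rose. Among 166 promoters of genes with Jurkat below the other lines it was in 6 (3.61%), with AARS1, CHAC1 and TARS1 among them. The promoters of CHAC1 (chr15:40953221-40953520, plus strand), AARS1 (chr16:70289457-70289756, minus strand) and TARS1 (chr5:33440715-33441014, plus strand) are shown with these letters in capitals:
CHAC1: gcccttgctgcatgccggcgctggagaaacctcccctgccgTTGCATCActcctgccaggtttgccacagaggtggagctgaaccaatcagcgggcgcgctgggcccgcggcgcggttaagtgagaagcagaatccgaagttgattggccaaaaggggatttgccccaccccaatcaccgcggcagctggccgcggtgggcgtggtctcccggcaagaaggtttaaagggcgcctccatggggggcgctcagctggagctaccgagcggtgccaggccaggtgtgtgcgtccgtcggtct
AARS1: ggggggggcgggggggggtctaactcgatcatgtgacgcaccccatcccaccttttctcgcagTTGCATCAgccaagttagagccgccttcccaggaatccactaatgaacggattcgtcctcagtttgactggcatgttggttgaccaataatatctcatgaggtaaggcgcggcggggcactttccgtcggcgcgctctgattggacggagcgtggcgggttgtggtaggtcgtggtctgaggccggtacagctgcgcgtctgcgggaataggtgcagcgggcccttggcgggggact
TARS1: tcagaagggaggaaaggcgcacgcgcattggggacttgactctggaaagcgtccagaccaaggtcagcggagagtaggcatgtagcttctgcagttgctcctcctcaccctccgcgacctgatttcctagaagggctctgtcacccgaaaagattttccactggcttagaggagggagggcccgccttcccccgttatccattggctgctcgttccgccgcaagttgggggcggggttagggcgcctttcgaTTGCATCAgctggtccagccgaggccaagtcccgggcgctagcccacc
AARS1, the alanine tRNA synthetase, read 9.97 and 9.77 against 9.34 and 9.32 (-0.54, SE 0.08, adjusted p = 0.000525), and TARS1, the threonine tRNA synthetase, read 12.20 and 12.06 against 11.82 and 11.76 (-0.34, SE 0.07, adjusted p = 0.00310). The differences of AARS1 and TARS1 from the other lines, -0.51 (adjusted p = 0.0143) and -0.33 (adjusted p = 0.0477), each lost their call without DMSO array 1 or either PD-0332991 array. For AARS1 the adjusted p was then 0.0738 to 0.0961. TARS1 lost its call with 13 of the 16 arrays left out in turn (adjusted p of 0.0519 to 0.249).

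DUSP6, ETV5 and EGR1, genes known to be induced by the ERK kinase pathway, rose further in Jurkat than in the other lines. DUSP6, the phosphatase that ERK induces to limit itself, read 6.31 and 6.66 in DMSO and 8.26 and 8.27 with PD-0332991 (1.78, SE 0.16, adjusted p = 1.14e-05). ETV5, an ETS factor downstream of ERK, read 5.44 and 5.68 against 7.07 and 6.97 (1.46, SE 0.09, adjusted p = 2.26e-07). EGR1, an immediate early transcription factor, read 5.76 and 5.90 against 7.22 and 7.38 (1.48, SE 0.17, adjusted p = 7.64e-05). The same genes differed in the other lines by 0.93, 0.34 and -0.28 for DUSP6, by 0.52, -0.39 and -0.11 for ETV5 and by 0.06, 0.64 and -1.0 for EGR1, in the order CEM, CUTL1 and DND41. Jurkat lay above their means by 1.45 for DUSP6 (adjusted p = 0.00224), 1.45 for ETV5 (adjusted p = 5.29e-05) and 1.58 for EGR1 (adjusted p = 0.00165). With probe sets averaged the rises in Jurkat were 0.67 for ETV5 and 0.65 for EGR1 and the differences 0.71 and 0.86, all still called.

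Jurkat began from low levels of the first 2 of these genes. In DMSO the other lines had mean levels of 10.91, 11.17 and 13.01 for DUSP6 and of 9.88, 9.07 and 7.85 for ETV5, so that both remained below those lines in treated Jurkat cells. For EGR1 the DMSO means were 5.41, 6.53 and 9.88. The rise did not extend to the whole list of 28 immediate early and feedback genes, of which 7 rose, 2 fell and 19 were not called (median 0.19). The shares over all genes were 15.6% that rose and 11.4% that fell. Among those not called were FOS, which was dim, JUN at 0.32 (adjusted p = 0.0648), and the ERK feedback genes SPRY1, SPRY2 and DUSP4 and the ETS gene ETV4, which were chosen after their values were seen. TNFAIP3, an inhibitor of NF-kB signalling, rose by 0.60, and NFKBIA, which holds NF-kB in the cytoplasm, fell by 0.47 (by 0.27 with probe sets averaged, adjusted p = 0.0628). The rises numbered 5 without PD-0332991 array 1 and 6 to 8 without each other Jurkat array.

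CD69, an early activation marker of T cells that also keeps them in tissue, read 7.14 and 7.78 against 9.05 and 9.08 (1.61, SE 0.23, adjusted p = 0.000423). It differed by 1.05 in CEM, 0.57 in CUTL1 and -0.64 in DND41, and Jurkat lay 1.28 above their mean (adjusted p = 0.0301). That difference lost its call with 9 of the 16 arrays left out in turn, including DMSO array 1 and both PD-0332991 arrays of Jurkat (adjusted p of 0.0505 to 0.162).

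**Figure D4:**
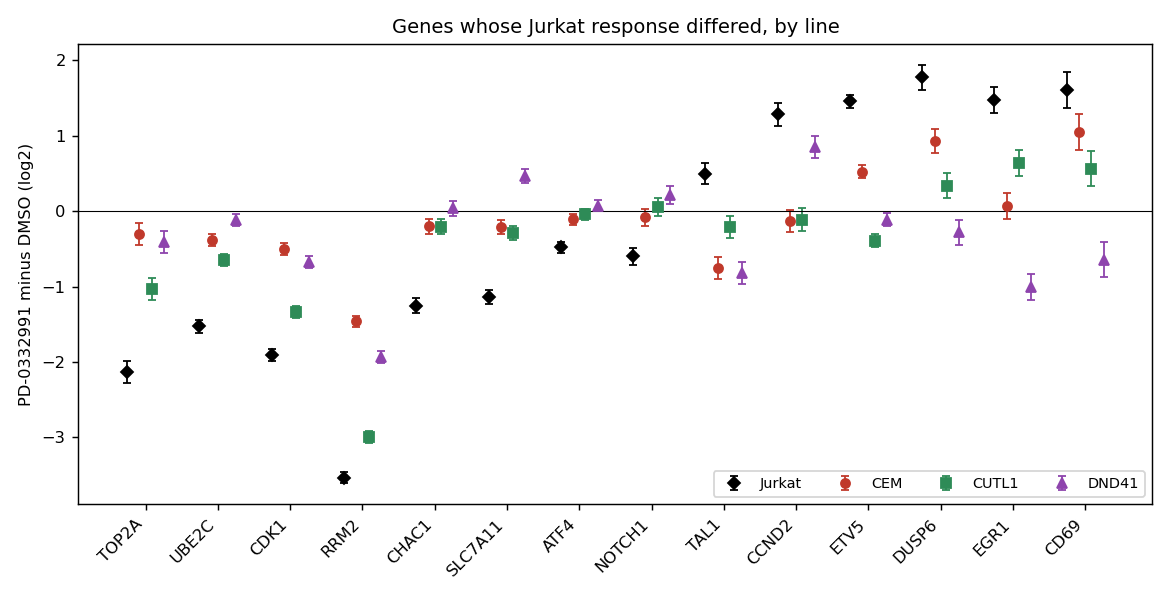
PD-0332991 minus DMSO (log2) of 14 genes in Jurkat (black diamonds), CEM (red circles), CUTL1 (green squares) and DND41 (purple triangles), each a difference between means of 2 arrays with bars of 1 SE from the limma fit over 16 arrays. Jurkat lies lowest for TOP2A to NOTCH1 and highest for TAL1 to CD69.

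Of 40 genes of the T cell receptor and its nearby signalling 22 rose, mostly by small amounts, and none fell (median 0.28), beside 15.6% of all genes that rose. CD3G, a receptor subunit, read lowest at -0.51 and was not called. A fit of the 4 Jurkat arrays alone called 13 members higher and 1 lower. LAT, the adaptor that gathers signalling proteins at the receptor, read 11.05 and 10.99 against 11.48 and 11.50 (0.47, SE 0.06, adjusted p = 0.000207). VAV1, an exchange factor downstream of the receptor, rose by 0.44 and DNTT, the enzyme that adds bases at receptor gene joints, by 0.62. The number that rose was sensitive to the arrays: it was 12 without DMSO array 1, 15 without DMSO array 2, 12 without PD-0332991 array 1 and 9 without PD-0332991 array 2. CD69 was the 1 member called apart from the other lines. The list medians of the other lines were 0.45 in CEM, 0.31 in CUTL1 and 0.21 in DND41, on either side of the Jurkat median.

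Of 26 transcription factors and targets linked to T cell identity or T-ALL, 7 rose, 1 fell and 18 were not called (median 0.15). Over all genes 15.6% rose and 11.4% fell. TAL1, the basic helix-loop-helix factor of many T-ALL cases, read 11.23 and 11.22 against 11.70 and 11.75 in Jurkat (0.50, SE 0.14, adjusted p = 0.0234). TAL1 differed by -0.76 in CEM, -0.21 in CUTL1, where it was dim in DMSO at 4.29, and -0.82 in DND41. Jurkat lay 1.10 above their mean (adjusted p = 0.00502), a call that held with each of the 16 arrays left out. The rise within Jurkat did not, with adjusted p of 0.0759 to 0.114 when any 1 of the 4 Jurkat arrays was left out. With probe sets averaged the TAL1 values were 0.32 and 0.57, both called. GATA3, a regulator of T cell development that acts with TAL1, read 11.20 and 11.16 against 11.61 and 11.62 (0.44, SE 0.07, adjusted p = 0.000552). ALDH1A2, a retinoic acid enzyme that TAL1 drives in T-ALL, rose by 0.76 and ARID5B by 0.62 (by 0.16 with probe sets averaged, adjusted p = 0.196). For GATA3, ALDH1A2 and ARID5B the differences from the other lines, 0.09, 0.43 and 0.03, did not pass the test (adjusted p of 0.631, 0.0745 and 0.902).

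NOTCH1, the receptor most often mutated in T-ALL, fell in Jurkat. It read 9.01 and 9.04 against 8.37 and 8.48 (-0.60, SE 0.11, adjusted p = 0.00259), beside -0.08, 0.06 and 0.22 in the other lines. Its second probe set, at a mean of 5.34, read 0.16 and was not different (unadjusted limma p of 0.134), and the average of both, -0.22, missed the threshold (adjusted p = 0.0619). The difference from the other lines, -0.66 (adjusted p = 0.0225), lost its call when any 1 of the 4 Jurkat arrays was left out (adjusted p of 0.0560 to 0.142). Among 23 NOTCH1 targets 5 rose and 3 fell, with a median of -0.03, beside 15.6% of all genes that rose and 11.4% that fell. The rises numbered 3 without DMSO array 1 and 2 without PD-0332991 array 2. HES4, a NOTCH-induced repressor, read 9.44 and 9.35 against 8.15 and 8.23 (-1.20, SE 0.08, adjusted p = 5.48e-07), and lay 0.69 below the other lines (adjusted p = 0.00228). MYC read 12.03 and 11.79 against 11.75 and 11.73 and was not called in Jurkat (-0.17, adjusted p = 0.251), whereas it differed by 0.13, 0.59 and 0.55 in CEM, CUTL1 and DND41. The Jurkat value lay 0.59 below their mean (adjusted p = 0.0200), and the call was lost without DMSO array 1 or either PD-0332991 array (adjusted p of 0.0962 to 0.117). Of 39 genes of the MYC network and ribosome biogenesis 3 rose and 7 fell, with 4 falls left without either PD-0332991 array and 1 rise left without DMSO array 1 or PD-0332991 array 1.

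Genes linked to FOXO factors and to quiescence rose together: 23 of 37, with 2 that fell and a median of 0.46, beside 15.6% of all genes that rose. FOXO proteins enter the nucleus when growth factor signalling is low and switch on genes of cell cycle exit and survival. HBP1, a repressor of proliferation genes, read 7.42 and 7.44 against 8.41 and 8.45 (1.00, SE 0.08, adjusted p = 2.26e-06), or by 0.48 with probe sets averaged. KDM5B, a histone demethylase, read 7.98 and 8.11 against 9.14 and 9.07 (1.07), and YPEL5 read 8.06 and 8.21 against 9.24 and 9.24 (1.11). TXNIP, which restrains glucose uptake, rose by 0.78 and S1PR1, which guides T cells out of tissue, by 0.72. None of these 5 differed from the other lines at the threshold (adjusted p of 0.224 to 0.870). With an array left out the rises numbered 16 to 25.

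Brakes on PI3K and mTORC1 signalling rose in 10 of 20 cases, against 15.6% of all genes, and fell in 3, a share near the 11.4% of all genes. SESN3, TP53INP1 and DDIT4 rose most, while PHLPP1, a phosphatase of AKT, fell by 0.82 (0.38 with probe sets averaged) and EIF4EBP1, a translational brake that ATF4 also controls, fell by 0.81. The rises numbered 6 without DMSO array 1 or either PD-0332991 array and 7 without DMSO array 2. Of 25 p53 targets 7 rose and 7 fell, and with a Jurkat array left out 3 to 5 rose (the fewest without PD-0332991 array 2) and 4 or 5 fell. DDB2, a repair protein, fell by 1.48 and GADD45A, a stress protein, rose by 0.60. PMAIP1, the death-promoting NOXA gene, read 11.49 and 11.47 against 10.49 and 10.29 (-1.09, SE 0.09, adjusted p = 3.57e-06). The other lines differed by -0.52, 0.02 and -0.24, and Jurkat lay 0.85 below their mean (adjusted p = 0.00128), a call that held with each array left out. In the BCL2 family 5 of 19 members rose and 3 fell, and 3 rises were left without any 1 of the 4 Jurkat arrays. BCL2A1, a survival protein, rose by 1.01, BCL2L1, which encodes BCL-XL, by 0.38 (0.26 with probe sets averaged, adjusted p = 0.0655), and BCL2 itself was not called (-0.09, adjusted p = 0.554). The survival gene MCL1 was called at 0.20 (adjusted p = 0.0447), which no Jurkat array could be left out without losing (adjusted p of 0.0865 to 0.187).

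Of 44 interferon-stimulated genes 23 rose and 4 fell, with a median of 0.37, beside 15.6% of all genes that rose and 11.4% that fell. OAS2, an antiviral sensor, read 7.16 and 7.14 against 8.10 and 8.12 (0.95, SE 0.11, adjusted p = 5.32e-05), and ISG20, a nuclease, rose by 0.91. The 4 that fell were HERC5 by 1.03, PLSCR1 by 1.15, OAS3 by 0.63 and CMPK2 by 0.52. The last was not called in a fit of the 4 Jurkat arrays alone (adjusted p = 0.0610) and was -0.34 without DMSO array 2. HERC5 and PLSCR1 also differed downwards in each other line, by 0.55 to 1.94. With an array left out the rises numbered 16 to 19. In 20 genes of MHC class I presentation 6 rose, HLA-E by 0.55, but 1 rise was left without either PD-0332991 array, 4 without DMSO array 1 and 3 without DMSO array 2. HLA probe sets can cross-react between family members.

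Cytokine receptors and JAK-STAT genes rose in 11 of 28 cases, beside 15.6% of all genes. They fell in 3, near the 11.4% of all genes that fell. STAT5A, a transcription factor of cytokine signalling, read 8.25 and 8.32 against 9.09 and 9.12 (0.82, SE 0.07, adjusted p = 9.73e-06), and STAT3 and STAT6 each rose by 0.60. IL9R, a cytokine receptor, rose by 0.74. Of 23 homing and adhesion genes 9 rose and none fell, against the same shares, with CCR9, a gut-homing receptor, at 1.06. The cytokine falls numbered 0 without DMSO array 1 or PD-0332991 array 1, 1 without DMSO array 2 and 2 without PD-0332991 array 2. The cytokine rises numbered 7 without DMSO array 2 or PD-0332991 array 2, and the homing rises 5 without DMSO array 1 or PD-0332991 array 2 and 6 without PD-0332991 array 1.

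Metabolic lists moved little beside the cell cycle lists. Of 27 sterol and fatty acid genes 2 rose and 3 fell, of 27 genes of glycolysis and the pentose phosphate pathway 4 rose and 4 fell, and of 30 respiratory chain genes 4 rose. Over all genes 15.6% rose and 11.4% fell. The glycolysis falls numbered 2 without either DMSO array or PD-0332991 array 1, and the glycolysis rises 2 without PD-0332991 array 1. The respiratory rises numbered 1 without DMSO array 1 or either PD-0332991 array. Their medians, 0.01, 0.01 and 0.09, lay near the median of all genes. ENO2, an enolase, fell by 0.79 and SLC2A3, a glucose transporter, rose by 0.85. Lysosome and autophagy genes rose in 14 of 42 cases, above the 15.6% of all genes, and fell in 4, near the 11.4% of all genes. MAP1LC3B, the LC3 protein of autophagosome membranes, rose by 0.59, while GLA, a lysosomal galactosidase, fell by 0.94. TPP1, a lysosomal protease, rose by 0.63, or by 0.09 (adjusted p = 0.730) without _x_at and _s_at probe sets. The lysosome rises numbered 7 without PD-0332991 array 1, 8 without DMSO array 1 or PD-0332991 array 2 and 11 without DMSO array 2.

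The genes furthest from the other lines outside these lists were led by AFAP1 and HMX2. AFAP1, which binds actin filaments, read 2.83 and 4.50 in DMSO, both dim, and 6.11 and 6.69 with PD-0332991 (2.74, SE 0.39, adjusted p = 0.000356). In the other lines it was dim with and without the drug, and Jurkat lay 2.92 above their mean (adjusted p = 0.00559). HMX2, a homeobox factor, read 5.92 and 6.66 against 3.92 and 4.04 (-2.31, SE 0.19, adjusted p = 4.28e-06) and was likewise dim in all other lines, with a difference of -2.23 (adjusted p = 0.000415). DNAAF4, a factor of dynein assembly, read 5.18 and 5.15 against 6.64 and 6.54 (1.43) and was dim in the others too (difference 1.30, adjusted p = 0.000164). For these 3 genes the contrast is between a line that reached the dim level and lines that stayed below it. That level is the median of all deposited values, so a dim reading does not show that a transcript was absent. Of the 333 genes called apart, 12 were dim in all 3 other lines, 7 with Jurkat above and 5 with Jurkat below.

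HTR2B, a serotonin receptor, read 4.66 and 4.70 against 6.42 and 6.48 (1.77, SE 0.10, adjusted p = 1.14e-07), beside 0.13, 1.01 and 0.04 in CEM, CUTL1 and DND41 (difference 1.38, adjusted p = 0.000164). HTR2B was dim in Jurkat before treatment and in CEM and DND41. PCDHB2, a protocadherin that was dim in the DMSO arrays of all other lines, rose by 1.48 (difference 1.25, adjusted p = 0.00357). IL26, a cytokine of T cells that was dim in the DMSO arrays of CEM and DND41, rose by 1.29 (difference 1.25, adjusted p = 0.00635). It was also dim in Jurkat before treatment, with a mean of only 4.59 over the 4 Jurkat arrays. The IL26 difference missed the threshold without PD-0332991 array 2 (1.10, adjusted p = 0.0529). CD83, a surface protein of activated lymphocytes, moved in opposite directions: it fell by 0.93, 1.12 and 0.80 in CEM, CUTL1 and DND41 and read 10.02 and 10.19 against 10.43 and 10.48 in Jurkat (0.35, adjusted p = 0.0490). Its difference from the other lines was 1.30 (adjusted p = 0.000544), and held with each array left out, while the rise in Jurkat was lost without any 1 of the 4 Jurkat arrays (0.27 to 0.43, adjusted p of 0.0538 to 0.254). ZNF704, a zinc finger protein, read 4.92 and 4.44 against 5.53 and 5.46 (0.81), with a difference of 1.40 (adjusted p = 0.00482). Without DMSO array 2 its rise in Jurkat was 0.57 (adjusted p = 0.0542), and with probe sets averaged the rise was 0.06 (adjusted p = 0.644) and the difference 0.34 (adjusted p = 0.0847).

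KLF11, a zinc finger repressor, read 6.45 and 7.05 against 5.21 and 4.39 (-1.95, SE 0.23, adjusted p = 7.45e-05). It fell as far in DND41 (-1.77) and was dim in CEM and CUTL1, and the difference of -1.26 (adjusted p = 0.0265) lost its call with 5 of the 16 arrays left out in turn, DMSO array 2 and PD-0332991 array 2 of Jurkat among them (adjusted p of 0.0511 to 0.105). With probe sets averaged the KLF11 values were -1.09 and -0.77, both called. PDE4A, which breaks down cyclic AMP, read 8.07 and 7.85 against 6.22 and 6.62 (-1.54, difference -1.20, adjusted p = 0.00395). A dim probe set of PDE4A read 0.28 (unadjusted limma p of 0.0407), and with all probe sets averaged the fall was 0.34 and the difference was -0.28 (adjusted p = 0.223).

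**Figure D5:**
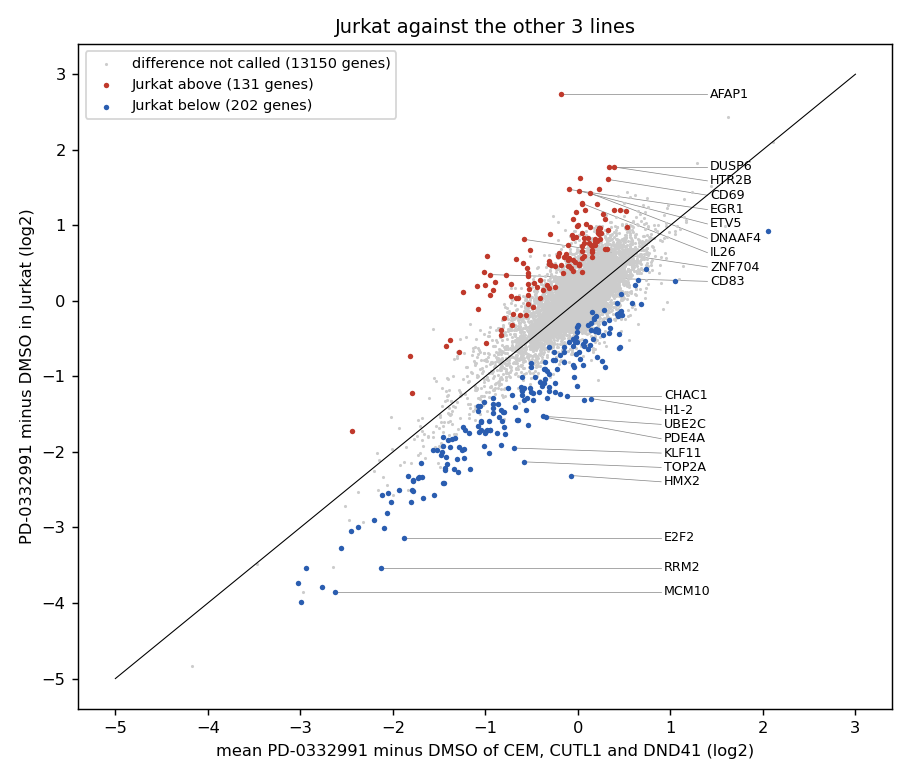
PD-0332991 minus DMSO in Jurkat (vertical axis, log2) against the mean of CEM, CUTL1 and DND41 (horizontal axis, log2) for 13483 genes, with the diagonal as equality. Red points are the 131 genes with Jurkat above and blue points the 202 with Jurkat below at the threshold. The blue points gather along the lower left, where genes that fell in all lines fell further in Jurkat.

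Among the 333 genes called apart, 286 were also called within Jurkat, and for 260 of these the Jurkat value lay outside the range of the other 3 lines. Of the 260, 160 fell in Jurkat and lay below the others, and 87 rose and lay above them. The remaining 10 and 3 fell or rose less than in the other lines. The counts depended on single arrays: those above numbered 55 without DMSO array 1, 309 without DMSO array 2, 46 without PD-0332991 array 1, 47 without PD-0332991 array 2 and 222 without DND41 PD-0332991 array 2. Those below numbered 125, 209, 88 and 102 without the same 4 Jurkat arrays.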

How the data were processed

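RNA of 4 T-ALL lines was amplified and hybridised to Affymetrix U133 Plus 2.0 arrays, 2 per line and treatment. The deposited intensities were made by the authors with RMA, per the submitters' processing notes, and lie on a linear scale. The design had assumed log2 values, so log2 was taken first, with no pseudocount. Of 54675 probe sets, 41097 have 1 gene symbol, 1801 several and 11777 none in the platform annotation. A gene was represented by its brightest probe set with 1 symbol (highest mean over 16 arrays), and 13483 of 19775 genes reached an intensity of 29.5 in at least 1 line. Precision is limited by having 2 arrays per group.

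limma 3.58.1 in R 4.3.3 fitted 8 group means to all 16 arrays (8 residual degrees of freedom, 3.32 prior). Contrasts were PD-0332991 minus DMSO in Jurkat, and that difference minus the mean of the differences in the other 3 lines, each against its own DMSO arrays. P-values were two-sided and Benjamini-Hochberg adjusted over 13483 genes. The method was tested on simulated data.

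Genes were named by a rule: the 12 largest rises and falls with arrays that did not overlap, the 10 largest differences from the other lines each way, 4 members per list, those of lowest p, with up to 5 exceptions, and well-known genes of the pathway. CDK1, SPRY1, SPRY2, DUSP4, ETV4, and those in the last section were chosen after their values were seen. E2F3, E2F4, E2F5, E2F6 and CD3G were also named outside the rule. Uncharacterised loci were passed over. The comparison, the lists and the rule were chosen with earlier results of these data known. Alternatives were other scalings, probe set rules, filters, variance models, a replicate block, the Jurkat arrays alone and leaving out each array. Probe sets whose names end in _x_at are open to cross-hybridisation, and those ending in _s_at are shared between transcripts. Both kinds were left out together.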

Additional observations from a re-analysis of the deposited data

Results flagged for a closer look

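These results stand out because the difference in Jurkat departed from the mean of the differences in CEM, CUTL1 and DND41 in a limma test of that departure. Over all genes, 131 lay above and 202 below. Each value is the Jurkat difference minus that mean (log2).

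Among cell cycle genes that fell, the departures were -1.55 for TOP2A, -1.40 for RRM2, -1.26 for E2F2, -1.23 for MCM10, -1.15 for UBE2C, -1.07 for CDK1, -1.02 for EXO1 and -1.0 for ZNF367. They were -0.94 for CDCA5, -0.89 for NCAPG, -0.86 for ASF1B, -0.73 for TYMS, -0.71 for CDT1, -0.70 for CDC6, -0.69 for TK1, -0.65 for MYBL2, -0.60 for DTL and -0.33 for TFDP1. CDT1 and TFDP1 each lost the call with 11 of the 16 arrays left out in turn. ZNF367 lost it without Jurkat DMSO array 2 or either PD-0332991 array, CDC6 without DMSO array 1 or PD-0332991 array 1, and TK1 without PD-0332991 array 1. With probe sets averaged TYMS read -0.33 (adjusted p = 0.0679) and TK1 -0.29 (adjusted p = 0.26). The histone genes H1-2 and H2AC6 departed by -1.44 and -1.13.

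In the ATF4 group the values were -1.13 for CHAC1, -1.12 for SLC7A11, -0.91 for STC2, -0.51 for AARS1, -0.45 for ATF4, -0.40 for CEBPG and -0.33 for TARS1. CEBPG lost its call with 11 arrays left out in turn. PMAIP1 departed by -0.85, HES4 by -0.69, NOTCH1 by -0.66, MYC by -0.59, NR3C1 by -0.67 and FKBP5 by -0.63. Outside the lists HMX2 departed by -2.23, KLF11 by -1.26, PDE4A by -1.20 and FLT4 by -1.04.

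Above the other lines lay AFAP1 at 2.92, EGR1 at 1.58, ETV5 at 1.45, DUSP6 at 1.45, ZNF704 at 1.40, VASH2 at 1.40, HTR2B at 1.38, DNAAF4 at 1.30, CD83 at 1.30 and CD69 at 1.28. They were followed by IL26 and PCDHB2 at 1.25 each, TAL1 at 1.10, CCND2 at 1.08, SLC4A4 at 0.97, EPAS1 at 0.79, OASL at 0.68 and IFITM1 at 0.49.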

How the results depend on the processing

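With each array left out in turn, the Jurkat rises numbered 1102 to 1911 and the falls 1048 to 1369. The genes above the other lines then numbered 46 to 309 and those below 88 to 244. A fit of the 4 Jurkat arrays alone called 1345 rises. Without _x_at and _s_at probe sets, which left 10575 genes tested, there were 970 falls and 119 genes below the other lines. In that setting 49 mitosis members, 31 replication members and 2 tRNA synthetases fell, and 34 and 5 of the mitosis and replication members lay below the other lines. ASF1A (0.34), MAX (-0.037) and WIPI2 (0.045) changed sign there. Genes without an unmarked probe set were not tested in that setting. The member counts are thus not directly comparable with those of the full lists, and the cause of the changes was not tested. The named genes checked were those of the naming rule and further genes picked outside it, not all of them mentioned here. Among these, the fit of the 4 Jurkat arrays alone ended 31 of 186 calls in Jurkat and averaging all probe sets ended 21. Averaging and the replicate block each ended 18 of 70 calls of a difference from the other lines. Rises made up 57.9% of the Jurkat calls as deposited, 53.8% with arrays centred on their medians, 58.1% after quantile normalization and 54.5% after cyclic loess. Arrays with the same replicate number within a line did not deviate together throughout (r of 0.105 in Jurkat, 0.0760 in CEM, 0.195 in CUTL1 and -0.108 in DND41). These correlations over genes cannot show whether arrays of the same number shared handling, and the labels do not say. With replicate as a block 1880 genes rose and 1372 fell in Jurkat, with 100 above and 123 below the other lines. With 2 arrays per group, no sample could be tested as an outlier.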

Other observations

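A few more genes differed between Jurkat and the other lines, of which STC2 is in the stress response list and OASL and IFITM1 are in the interferon-stimulated list. They were chosen after their values were seen, and the differences are given as values. NR3C1, the glucocorticoid receptor through which dexamethasone acts in T-ALL, read 9.60 and 9.72 in the Jurkat DMSO arrays and 9.09 and 9.21 in the PD-0332991 arrays (-0.51, SE 0.10, limma adjusted p = 0.00310). It differed by 0.32, -0.02 and 0.18 in CEM, CUTL1 and DND41, and Jurkat lay 0.67 below their mean (adjusted p = 0.0106). The NR3C1 difference lost its call without PD-0332991 array 1 (adjusted p = 0.0821) and with probe sets averaged (-0.56, adjusted p = 0.0626). Without the probe sets marked as cross-hybridising or shared between transcripts, neither that difference (-0.58, adjusted p = 0.637) nor the Jurkat change itself (-0.38, adjusted p = 0.599) was called by limma. FKBP5, a chaperone partner and target of that receptor, read 10.53 and 10.51 against 9.39 and 9.34 (-1.15, SE 0.07, adjusted p = 2.32e-07) and lay 0.63 below the other lines (adjusted p = 0.00165), a call that held with each array left out. FLT4, a receptor for vascular growth factors, read 7.35 and 7.40 against 6.22 and 6.06, with 1.04 as the distance below the other lines (adjusted p = 0.00165), although with all probe sets averaged its fall was 0.32 and the difference from the other lines was not called (-0.21, adjusted p = 0.329). STC2, a secreted stress-induced hormone, fell by 0.85 and was dim in the DMSO arrays of the other lines (difference -0.91, adjusted p = 0.0154). Its difference lost the call without DMSO array 2 or either PD-0332991 array (adjusted p of 0.0530 to 0.103).

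On the rising side, EPAS1, the HIF-2 alpha factor of the hypoxia response, read 7.83 and 7.79 against 8.90 and 8.89 (1.09, SE 0.09, adjusted p = 5.16e-06) and lay 0.79 above the other lines (adjusted p = 0.00253), or 0.23 above (adjusted p = 0.299) with probe sets averaged. OASL and IFITM1, both interferon-stimulated, rose by 0.90 and 0.64 and lay 0.68 and 0.49 above the other lines (adjusted p of 0.0189 and 0.0332). OASL lost that call without DMSO array 2 or either PD-0332991 array, and IFITM1 with 10 of the 16 arrays left out in turn. For VASH2 and SLC4A4 no change was called in Jurkat, and the values in some or all of the other lines were lower with PD-0332991. VASH2, a vasohibin, read 8.49 and 8.92 against 9.01 and 9.17 in Jurkat (0.38, adjusted p = 0.211), beside 0.23, -1.46 and -1.81 in CEM, CUTL1 and DND41. SLC4A4, a bicarbonate transporter, differed by -0.11 in Jurkat and by -0.78, -1.96 and -0.51 in the others. The VASH2 and SLC4A4 differences from the mean of the others were 1.40 (adjusted p = 0.0106) and 0.97 (adjusted p = 0.00515). Both missed the threshold with probe sets averaged (0.45 and 0.18), and VASH2 also without DMSO array 1 or PD-0332991 array 2.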
